A study of Mus musculus with 18 samples.

Results

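The enzymes that make purines, pyrimidines and deoxynucleotides, and the folate enzymes that supply them with one-carbon units, were followed in mouse embryonic stem cells (ESCs) and epiblast-like cells (EpiLCs). The set was listed by name with earlier results of these data known, as were the other lists and motifs below. Shares of the set beside those of all genes are therefore a description. The set holds 34 genes in 7 role groups. All 34 were measured in both cell types, among 13104 genes in ESCs and 13717 genes in EpiLCs. The libraries fall into 4 groups of 3 biological replicates. These are ESCs with the vehicle, ESCs with 100 nM Δ9-THC (Δ9-tetrahydrocannabinol, the main psychoactive compound of cannabis), EpiLCs with the vehicle and EpiLCs with 100 nM Δ9-THC. All came from a reporter ESC line with Blimp1::mVenus and Stella::ECFP transgenes, which mark germline genes. EpiLCs are made from such ESCs with activin A and basic fibroblast growth factor. Exposure was continuous up to collection in both cell types, and exposed EpiLCs came from ESCs that had already been exposed. In comparisons of the exposure effect between cell types, cell type and length of exposure therefore cannot be told apart. The question asked of each cell type was which RNA levels differed between exposed and vehicle cells.

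Purines are built stepwise on phosphoribosyl pyrophosphate (PRPP) up to inosine monophosphate (IMP), which is then turned into AMP or GMP. Pyrimidines are built as a free ring that is attached to PRPP afterwards, and ribonucleotide reductase converts the ribonucleotides of both classes into the precursors of DNA. Serine and glycine feed the folate cycle, which donates carbon to the purine ring and to thymidylate, and rapidly dividing pluripotent cells are known for a high demand on all of these routes.

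Each library held 23427551 to 32096698 adjusted counts. The 34 genes together held 0.702% to 0.878% of them, and 33 of the 34 had at least 100 counts in every library, the exception being Adssl1. The labels of the cell types were checked with marker genes. The 8 naive pluripotency markers summed to 4286 to 4650 CPM (counts scaled to a common library size) in ESCs and to 309 to 365 CPM in EpiLCs. Formative markers summed to 153 to 173 CPM in ESCs (6 of the 7 listed were in that table) and to 1708 to 2077 CPM in EpiLCs (7 of 7). The endoderm, mesoderm, trophoblast, neural and fibroblast lists each summed to at most 23.3 CPM in any library, and 4 of the 5 primitive endoderm markers and the trophoblast genes Cdx2 and Elf5 were in neither table. In bulk RNA, fewer cells of a type and less RNA per cell cannot be told apart.

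In vehicle cells, levels were compared between genes as CPM per kilobase of exon, with the length taken over all annotated exons of a gene. This length can exceed that of the main transcript, and the value is then lower. Paics, which encodes a bifunctional enzyme of the purine route, had the highest level in both cell types, at 252 in ESCs and 232 in EpiLCs. The subunit gene of ribonucleotide reductase Rrm2 (216 in ESCs), the purine salvage gene Hprt (199), the PRPP synthetase gene Prps1 (187) and Impdh2 (178), whose product starts the branch to GMP, followed. At the other end were Adssl1, the muscle form of adenylosuccinate synthase, at 0.849 in ESCs, and the mitochondrial folate gene Aldh1l2 at 1.69. A few genes shifted between the cell types. The nucleoside diphosphate kinase gene Nme1 had a log2 ratio of 1.17 in CPM of vehicle EpiLCs over vehicle ESCs, Mthfd2, a mitochondrial folate dehydrogenase, one of 0.87, and Dut, which keeps uracil out of DNA, one of 0.81. Prps1 had the most negative ratio, -0.91, beside 0.63 for its isozyme Prps2. In all, 23 of the 34 genes had a higher CPM in vehicle EpiLCs, and 1 of them, Nme1, by more than 2-fold. Nme1 shares 12.5% of its exonic bases with the readthrough gene Gm20390, so its level is uncertain. The same limit holds for the 6 of the 34 genes that share at least 5% with another gene, among them Gart (19.7%), Aldh1l2 (14.1%) and Paics (8.67%). The tables of the cell types were adjusted separately, so these levels were not tested against each other.

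**Figure D1:**
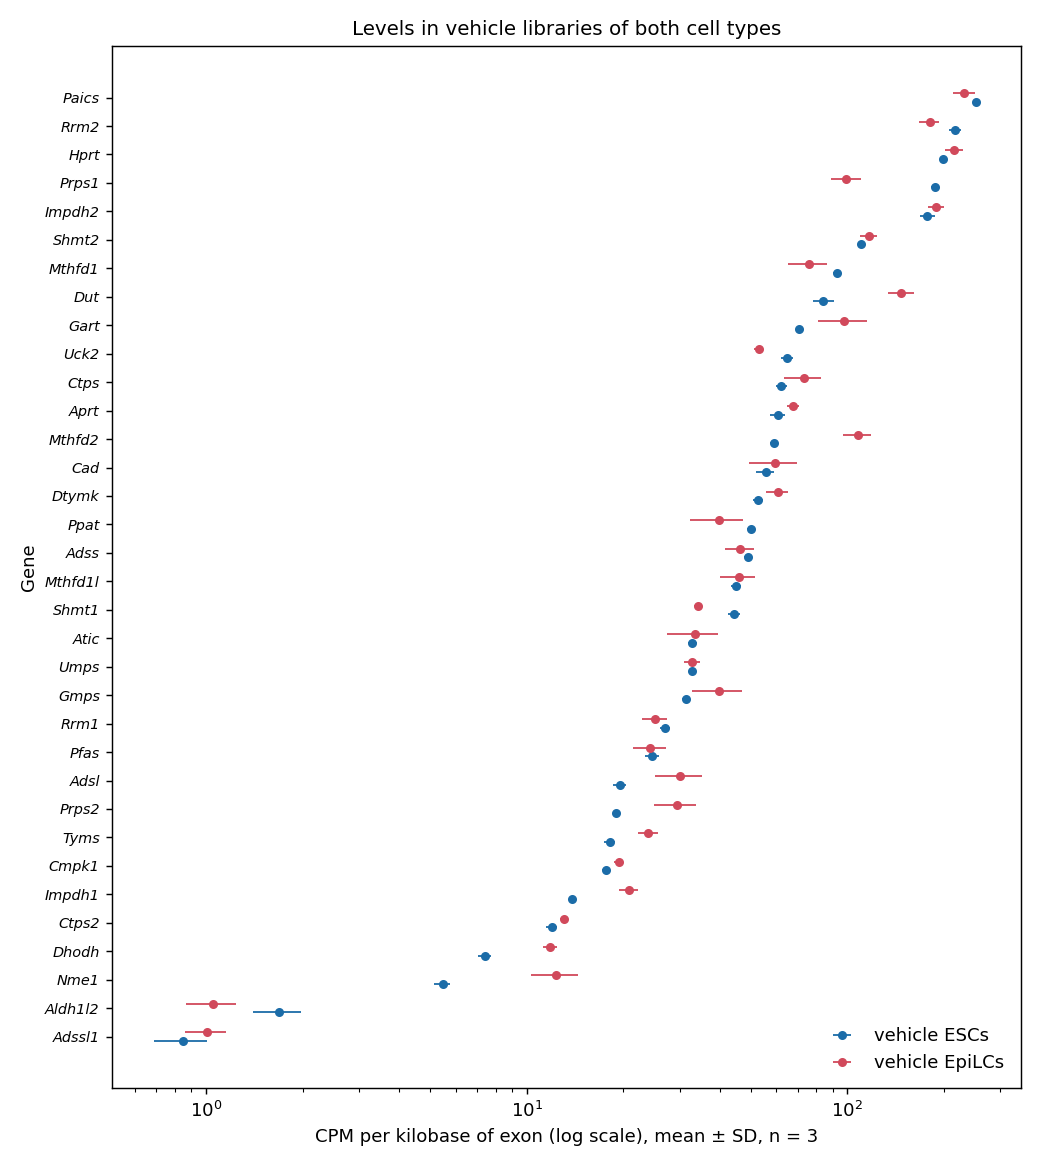
Each gene's level in the vehicle libraries of ESCs (blue) and EpiLCs (red), as the mean and SD of 3 libraries in CPM per kilobase of exon on a log axis, ordered by the level in ESCs. The level in ESCs runs from 0.849 for Adssl1 to 252 for Paics, and the points of the cell types lie farthest apart for Nme1, Prps1, Mthfd2 and Dut.

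In ESCs, 7 of the 34 genes (20.6%) changed with Δ9-THC exposure at a Benjamini-Hochberg adjusted p-value of at most 0.05 in edgeR's quasi-likelihood test, against 6.91% of all 13104 genes tested. Cmpk1, Adss, Hprt, Prps2 and Ppat rose, where 3.37% of all genes did, and Impdh1 and Shmt2 fell, where 3.55% of all genes did. All of these changes were small, with log2(fold-change) values between -0.20 and 0.24. The median over the 34 genes was 0.034 and that over all genes 0.0041, and 23 of the 34 had a value above 0, where 51.1% of all genes did. The median of the 34 ran from 0.025 to 0.057 without 1 library, and without both libraries of number 2 it was 0.012 with 18 of the 34 above 0 (51.1% of all genes). The calls were not stable. With any 1 of the 6 ESC libraries left out, none of the 34 and at most 1 of all genes passed at that threshold. In these edgeR fits, 10 to 12 of the 34 (29.4% to 35.3%) had an unadjusted p-value under 0.05, where 20.9% to 28.6% of all genes did. The sizes of the 7 changes were kept (range of Cmpk1 0.22 to 0.27, of Shmt2 -0.14 to -0.12). Their signs were kept too, but leaving out libraries could hardly reverse them, because the groups of these genes did not overlap. The test takes libraries as independent, but those of the same replicate number deviated from their group means in opposite directions, and with a block on that number 0 of the 34 and 5 of all genes (0.0382%) passed. When the ESC comparison was drawn from 1 fit to all 12 libraries, 0 of the 34 and 25 of all genes (0.201%) passed. None of the 8 naive markers passed in ESCs, and of the 6 formative markers, Pou3f1 and Sox3 (named after their values were seen) fell by 0.96 and 0.40 on the log2 scale from 3.83 and 3.99 CPM with the vehicle, and their part in these results was not tested.

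The genes that rose belong to several routes. Cmpk1, a kinase that phosphorylates UMP and CMP, had 62.6, 59.4 and 59.6 CPM in the vehicle libraries 1 to 3 and 68.7, 72.7 and 72.8 CPM in the exposed ones. The lowest exposed library lay above the highest vehicle library. This is the largest increase among the 34 genes, a log2(fold-change) of 0.24 (SE 0.039, adjusted p = 0.0304 by edgeR with Benjamini-Hochberg). The gene lies on chromosome 4 from 114959336 to 114987241 (minus strand, GRCm38).

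Adss, which encodes the adenylosuccinate synthase that commits IMP to AMP (chromosome 1 from 177762962 to 177796511), had 225, 216 and 225 CPM with the vehicle and 253, 264 and 255 CPM with Δ9-THC. Its groups were separate, with a log2(fold-change) of 0.22 (SE 0.030, adjusted p = 0.0283 by edgeR with Benjamini-Hochberg). Hprt recycles hypoxanthine and guanine into IMP and GMP and lies on chromosome X from 52988137 to 53021659. It had 260, 256 and 255 CPM with the vehicle and 285, 290 and 293 CPM with exposure. The exposed libraries were again all higher, by a log2(fold-change) of 0.17 (SE 0.025, adjusted p = 0.0301 by edgeR with Benjamini-Hochberg).

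Prps2 makes PRPP, the sugar donor of both routes (chromosome X from 167346322 to 167382749). Its level was 73.7, 72.9 and 74.1 CPM in vehicle ESCs and 81.2, 82.3 and 81.4 CPM in exposed ESCs, without overlap. The log2(fold-change) was 0.15 (SE 0.026, adjusted p = 0.0324 by edgeR with Benjamini-Hochberg), and this was the only one of the 7 genes that did not pass with DESeq2 (adjusted p = 0.0719). Its isozyme Prps1 had a log2(fold-change) of 0.022 (SE 0.033), with overlapping groups.

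Ppat, the first and rate-limiting step of purine synthesis, lies on chromosome 5 from 76913249 to 76951578. It had 226, 216 and 221 CPM with the vehicle and 238, 251 and 246 CPM with Δ9-THC. The groups did not overlap, and the log2(fold-change) was 0.15 (SE 0.031, adjusted p = 0.0446 by edgeR with Benjamini-Hochberg). The neighbouring gene Paics lies on the opposite strand, and its RefSeq start (76951302) lies inside Ppat, 276 bases from the start of Ppat (76951578). The 5′ ends of the genes thus overlap, and 6.15% of the exonic bases of Ppat are shared with Paics. Reads over shared bases are not assigned in the authors' counting mode. Paics had a log2(fold-change) of 0.11 (SE 0.029, adjusted p = 0.0617 by edgeR with Benjamini-Hochberg) and separate groups, at 788, 779 and 811 CPM with the vehicle and 860, 872 and 842 CPM with exposure.

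The remaining genes from Ppat to IMP had positive values too, so that all 6 were above 0 while 1 passed the test. All 6 also lay above 0 with every normalization tried, but Adsl had -0.0082 in a fit without both libraries of replicate number 2. Pfas, which adds a nitrogen from glutamine, had a log2(fold-change) of 0.12, Atic, which closes the purine ring, 0.11, the lyase gene Adsl, which acts before IMP and again towards AMP, 0.059, and Gart, whose protein catalyses several early steps, 0.037. The groups of Atic were separate, but its lowest exposed library (273.1 CPM) was only just above its highest vehicle library (272.1 CPM). All 5 deoxynucleotide genes also lay above 0 without passing, from 0.0072 for Dut (-0.048 to 0.059 without 1 library) to 0.13 for Rrm2, with 0.062 for Rrm1 (-0.015 with offsets for GC content and length), 0.080 for the thymidylate synthase gene Tyms and 0.099 for the thymidylate kinase gene Dtymk. Of these 5, only Rrm2 had separate groups, at 571 to 619 CPM with the vehicle and 635 to 689 CPM with Δ9-THC.

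Of the genes that fell in ESCs, Impdh1 encodes an IMP dehydrogenase of the branch to GMP (chromosome 6 from 29200434 to 29216364). It had 45.3, 46.5 and 44.7 CPM with the vehicle and 39.8, 38.9 and 40.6 CPM with Δ9-THC. All exposed libraries were lower, with a log2(fold-change) of -0.20 (SE 0.034, adjusted p = 0.0338 by edgeR with Benjamini-Hochberg). The main isozyme, Impdh2, had -0.064 (SE 0.052) with overlapping groups, and Gmps, the next enzyme towards GMP, 0.11 (SE 0.034) with separate groups. With offsets for GC content and length, Gmps had -0.072, below 0 like Impdh1 and Impdh2.

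Shmt2, the mitochondrial enzyme that splits serine into glycine and a one-carbon unit, lies on chromosome 10 from 127517123 to 127522444. Its level was 342, 348 and 340 CPM in vehicle ESCs and 313, 308 and 318 CPM in exposed ESCs. The exposed libraries were all below the vehicle libraries, by a log2(fold-change) of -0.13 (SE 0.025, adjusted p = 0.0380 by edgeR with Benjamini-Hochberg). The cytosolic form Shmt1 had 0.044 (SE 0.046), and Mthfd1, Mthfd1l and Mthfd2, which handle the unit further along the cycle, had values between -0.010 and 0.021. Aldh1l2 had the lowest value of the set, -0.27, but with an SE of 0.18 and exposed libraries (8.50 to 12.6 CPM) that overlapped the vehicle libraries (10.5 to 14.8 CPM).

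Apart from Cmpk1, no pyrimidine gene passed in ESCs. Cad, which encodes the enzyme that opens the route, had a log2(fold-change) of -0.094 (0.030 with the offsets), Dhodh, the mitochondrial step, -0.11, and Umps, which forms UMP, -0.040. Of these 3, Umps had groups that did not overlap. The remaining pyrimidine genes lay close to 0, at 0.034 for the CTP synthase gene Ctps, -0.023 for its isozyme Ctps2, 0.030 for the uridine-cytidine kinase gene Uck2 and 0.034 for Nme1. The salvage gene Aprt had -0.032, and Adssl1 -0.26 with an SE of 0.22 at 25 to 71 counts per library. In all, exposed and vehicle ESCs did not overlap for 12 of the 34 genes (35.3%), 9 of them above and 3 below, and the share over all genes was 32.6%, with 16.7% above and 15.9% below.

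**Figure D2:**
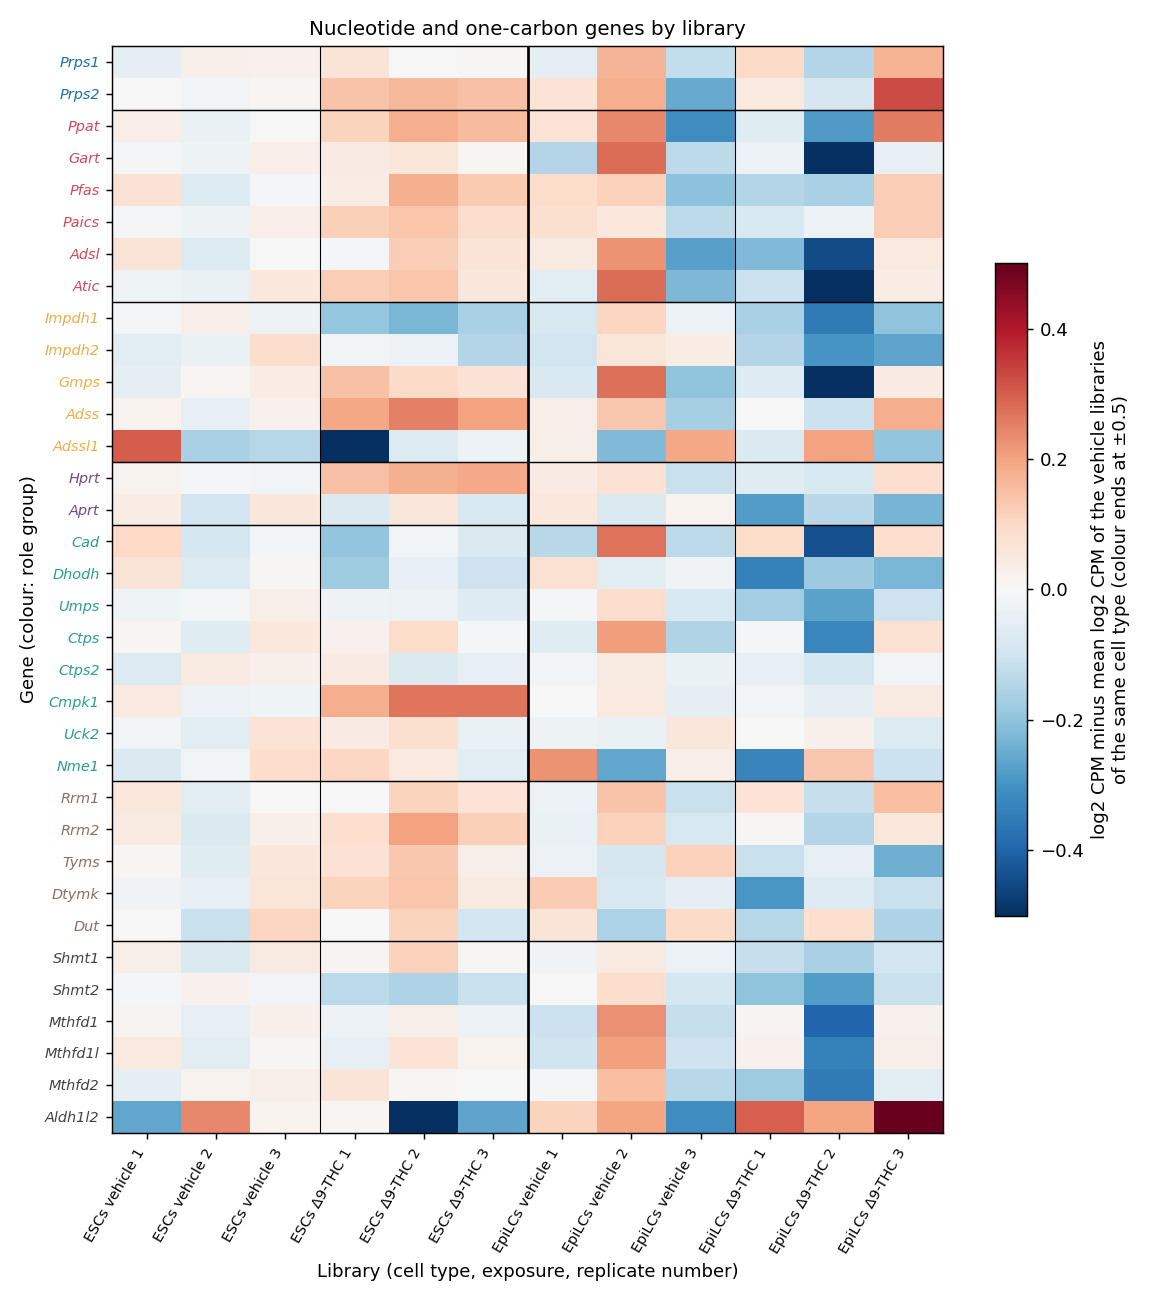
Log2 CPM of each of the 34 genes in each of the 12 libraries minus the mean log2 CPM of the vehicle libraries of the same cell type, with genes in rows by role group and the colour scale ending at 0.5 in either direction. In ESCs the exposed columns are evenly red for Adss, Cmpk1, Hprt and Prps2 and evenly blue for Impdh1 and Shmt2, while in EpiLCs the columns of vehicle 2 and of Δ9-THC 2 carry many of the strong colours.

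In EpiLCs, 0 of the 34 genes passed edgeR's test after adjustment, and neither did any of the 13717 genes (0.0%). At an unadjusted p-value under 0.05, edgeR counted 6 of the 34 genes (17.6%) and 2069 of all genes (15.1%), and DESeq2 called 0 of the 34 and 87 of all genes (0.634%) after adjustment. All 6 were lower with Δ9-THC, where 6.8% of all genes were lower and 8.28% higher at that threshold. The fit to all 12 libraries called 2 of them, Dhodh and Impdh1 (adjusted p = 0.0484 each, edgeR), among 439 genes in EpiLCs (3.54%). Over the 34 genes the median log2(fold-change) was -0.088, against 0.0030 for all genes, and 28 had a value below 0, where 49.3% of all genes did.

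The lowest value belonged to Dhodh (chromosome 8 from 109591343 to 109608673), the enzyme of pyrimidine synthesis in the inner mitochondrial membrane. It had 78.9, 72.0 and 73.9 CPM in vehicle EpiLCs and 59.3, 66.0 and 63.8 CPM in exposed EpiLCs. The groups were separate, with a log2(fold-change) of -0.25 (SE 0.068, adjusted p = 0.204 by edgeR with Benjamini-Hochberg). Umps, the following step, had 113, 121 and 108 CPM with the vehicle and 101, 94.8 and 106 CPM with exposure, also without overlap, and a log2(fold-change) of -0.18 (SE 0.072, adjusted p = 0.315 by edgeR with Benjamini-Hochberg). All 8 pyrimidine genes were below 0, the nearest to it being Cmpk1 with -0.0046, but 5 of them (Cad, Ctps, Cmpk1, Uck2 and Nme1) were above 0 in at least 1 fit that left out a library or both libraries of a replicate number.

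Both IMP dehydrogenase genes were among the 6. Impdh1 had 64.8, 73.7 and 67.0 CPM with the vehicle and 61.2, 53.6 and 59.6 CPM with exposure, a log2(fold-change) of -0.24 (SE 0.080, adjusted p = 0.252 by edgeR with Benjamini-Hochberg). Impdh2 (chromosome 9 from 108560286 to 108565584) had 544, 606 and 596 CPM with the vehicle and 525, 474 and 484 CPM with exposure, a log2(fold-change) of -0.23 (SE 0.076, adjusted p = 0.239 by edgeR with Benjamini-Hochberg). Neither pair of groups overlapped. Gmps had -0.18, and the AMP branch genes Adss and Adssl1 had 0.023 and -0.017.

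Aprt, which salvages adenine (chromosome 8 from 122574635 to 122576909), had 114, 104 and 111 CPM with the vehicle and 90.3, 99.6 and 93.3 CPM with Δ9-THC. Its groups were separate, with a log2(fold-change) of -0.22 (SE 0.065, adjusted p = 0.222 by edgeR with Benjamini-Hochberg), whereas the other salvage gene, Hprt, had -0.018. Shmt2 had 363, 385 and 341 CPM with the vehicle and 316, 299 and 336 CPM with exposure. Here too the highest exposed library lay below the lowest vehicle library, and the log2(fold-change) was -0.20 (SE 0.076, adjusted p = 0.300 by edgeR with Benjamini-Hochberg). Shmt1 (-0.12) was the other folate gene with all exposed libraries lower.

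The other genes had wider spreads. From Ppat to IMP, Gart (-0.21), Adsl (-0.21) and Atic (-0.20) had low values with SEs of 0.18, 0.17 and 0.19, Ppat and Pfas had -0.029 and -0.063, and Paics had 0.0046. Among the deoxynucleotide genes, Dtymk had -0.16, Tyms -0.13, Dut -0.072, Rrm2 -0.029 and Rrm1 0.035. The folate genes Mthfd2, Mthfd1 and Mthfd1l had -0.20, -0.12 and -0.093. Aldh1l2 was the only gene of the set with all exposed libraries above the vehicle ones, at 9.59, 8.93 and 12.2 CPM against 8.42, 8.93 and 6.29 CPM, and 2 of these values were nearly equal (8.932 and 8.925 CPM). Its log2(fold-change) was 0.37 (SE 0.17, adjusted p = 0.369 by edgeR with Benjamini-Hochberg). Counted together, 8 of the 34 genes (23.5%) had groups without overlap, where 21.8% of all genes did, and 7 of them were lower with exposure, where 10.6% of all genes were, and 1 higher, where 11.2% were.

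**Figure D3:**
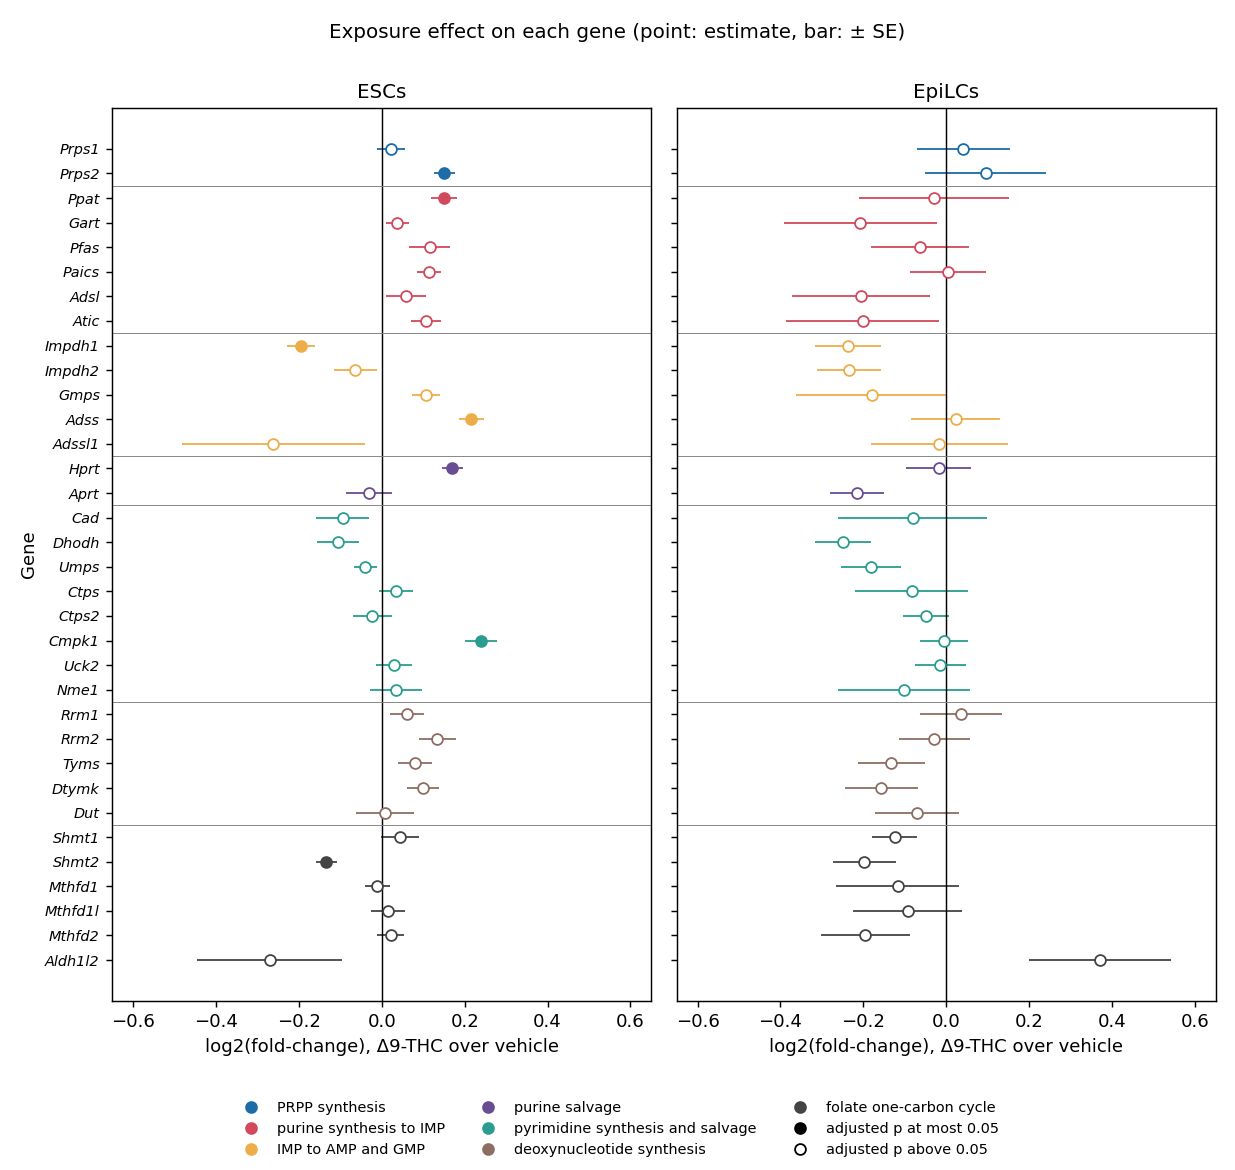
Log2(fold-change) of Δ9-THC over vehicle with its SE for each gene in ESCs (left) and EpiLCs (right), coloured by role group, with filled points where the adjusted p-value was 0.05 or less. The 7 filled points are all in ESCs, the genes from Ppat to Atic lie right of 0 in ESCs, and most points in EpiLCs lie left of 0 with wider bars.

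The exposure effect differed in sign between the cell types for 19 of the 34 genes, of which 18 were above 0 in ESCs and below 0 in EpiLCs and 1, Aldh1l2, the reverse. Over the 12410 genes in both tables the sign differed for 41.1%, and 20.9% were above 0 in ESCs and below 0 in EpiLCs. Many of these signs were not stable, since 15 of the 34 genes in ESCs and 22 in EpiLCs took either sign in fits without libraries. The test of that difference, an interaction term in one model of the 12 libraries, passed for 0 of the 34 genes and for 3 of all 12410 genes (0.0242%, edgeR). Without adjustment it gave a p-value under 0.05 for 6 of the 34 (17.6%) and for 13.9% of all genes. The smallest adjusted value was that of Cmpk1, whose effect in EpiLCs minus that in ESCs was -0.25 on the log2 scale (SE 0.071, adjusted p = 0.158 by edgeR with Benjamini-Hochberg). The difference was below 0 for 30 of the 34 genes (52.5% of all genes), with a median of -0.15 against -0.013 for all genes. Without both libraries of replicate number 2, 18 of the 34 were above 0 in ESCs (51.1% of all genes). In EpiLCs without that number, 15 were below 0 (50.7% of all genes). The interaction was not refitted without that number. Its value was -0.32 for Atic (SE 0.19), -0.30 for Gmps (SE 0.19), -0.28 for Adsl (SE 0.18) and -0.27 for Dtymk (SE 0.10). By contrast, Impdh1 and Shmt2 were below 0 in both cell types, with differences of -0.053 (SE 0.087) and -0.075 (SE 0.080).

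Values within a replicate number are given as a description only. Same-numbered libraries deviated from their group means in opposite directions, so the libraries behind each ratio were not independent of each other. In EpiLCs the median log2 ratio of the exposed over the vehicle library was -0.067 for number 1, -0.26 for number 2 and 0.11 for number 3, with 23, 27 and 13 of the 34 genes lower. In ESCs the medians were 0.044, 0.14 and -0.023. The numbers did not share a direction in either cell type. The libraries with the most extreme values in EpiLCs were vehicle 2, whose 34 genes had a median of 0.11 above the vehicle mean on the log2 scale, and Δ9-THC 2, with a median of -0.15. As these libraries share a number, their deviations are not separate observations. Without vehicle 2, the median log2(fold-change) of the 34 genes in EpiLCs was -0.029 and 20 of the 34 were below 0, and without both libraries of number 2 it was 0.031 with 15 below 0. Without both of number 3 it was -0.20.

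The deviations of same-numbered libraries from their group means were mirror images. Over the 34 genes, those of an exposed and a vehicle library of one number had correlations of -0.98 to -0.99, as a description over genes that share libraries and adjustment. In EpiLCs, the median of the 34 genes also moved with the summed formative markers. These summed to 1914, 2037 and 1708 CPM in vehicle libraries 1 to 3 and to 1870, 1747 and 2077 CPM in exposed libraries 1 to 3, where the medians of the 34 genes relative to the vehicle mean were -0.0091, 0.11 and -0.11, and -0.068, -0.15 and 0.026. None of the 7 formative markers passed the test of exposure in EpiLCs. The 8 naive markers summed to 309 to 338 CPM in vehicle EpiLCs and to 333 to 365 CPM in exposed ones, and all 8 had a log2(fold-change) above 0, with a median of 0.21 and a highest value of 0.60, while 0 passed. The part of either marker list in the result was not tested.

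**Figure D4:**
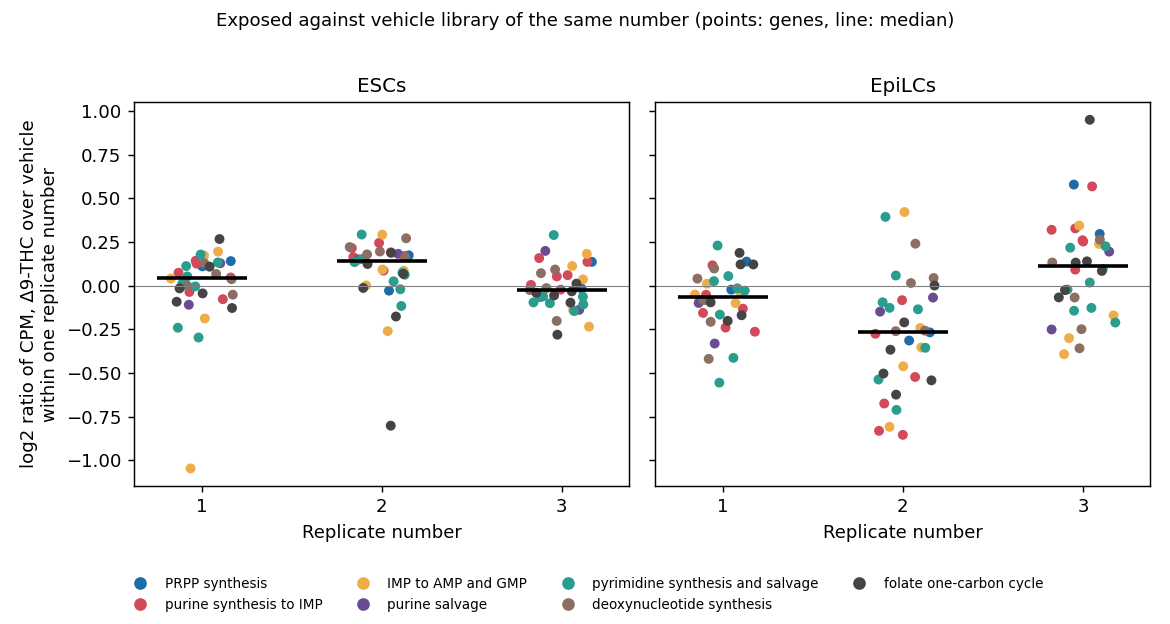
Log2 ratio of CPM in the exposed library over the vehicle library of the same replicate number for each of the 34 genes (points, coloured by role group, spread sideways for visibility), with the median as a black line, in ESCs (left) and EpiLCs (right). The median lies at -0.26 for number 2 and at 0.11 for number 3 in EpiLCs.

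The changes in ESCs moved with the GC content of the transcripts. The 5 genes that rose have a GC content between 40.1% (Hprt) and 44.4% (Ppat), and the 2 that fell have 57.9% (Shmt2) and 58.1% (Impdh1). Over the 34 genes the log2(fold-change) in ESCs and GC content had a Pearson correlation of -0.69 (Spearman -0.72), and over 13083 genes one of -0.48 (Spearman -0.55). Of the 8 genes with a GC content below 45%, 7 were above 0 in ESCs, as were 86.7% of all genes in that class, and of the 5 genes with at least 55%, 0 were above 0, beside 20.5% of all genes. In the middle classes the set lay above the other genes. In the class of 50% to 55%, 8 of 11 genes were above 0, where 36.4% of all genes were, with a median of 0.030 against -0.037.

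With offsets fitted per library to level any smooth dependence on GC content and length, 0 of the 34 genes and 2 of all genes (0.0153%) passed edgeR's test in ESCs, with 4 of the 34 (11.8%) and 18.1% of all genes at an unadjusted p-value under 0.05. The log2(fold-change) of Hprt then was -0.027, that of Adss 0.084, of Cmpk1 0.12 and of Shmt2 -0.020. The part of GC content in these changes was not tested further. One gene entry of the tables, ENSMUSG00000119584, took 0.477% to 0.639% of the counts in vehicle ESCs and 2.46% to 3.19% in exposed ESCs. In EpiLCs its share overlapped between the groups, at 0.779% to 3.88% with the vehicle and 0.418% to 3.97% with exposure, and its part in these results was not tested.

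In EpiLCs, GC content and log2(fold-change) had a Pearson correlation of -0.38 over the 34 genes (Spearman -0.52) and of -0.27 over 13696 genes (Spearman -0.31). The median of the set was below that of all genes in each of the 4 GC classes, at -0.011 against 0.088 below 45% and -0.20 against -0.076 from 55% up. With the offsets, 30 of the 34 genes were below 0, beside 54.2% of all genes. Dhodh had -0.26, Impdh2 -0.19 and Umps -0.19 in that fit, and 0 genes passed after adjustment.

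**Figure D5:**
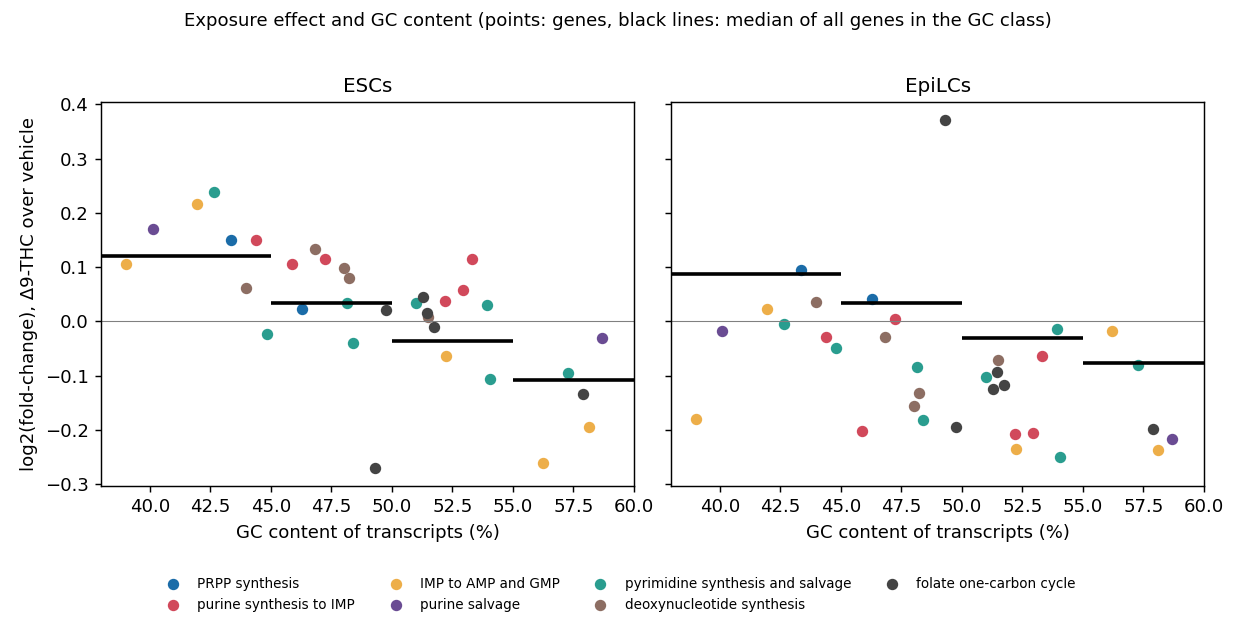
Log2(fold-change) of Δ9-THC over vehicle against the GC content of the transcripts in percent for the 34 genes, coloured by role group, in ESCs (left) and EpiLCs (right), with black lines for the median of all genes in each GC class. In ESCs the points follow the lines downwards from left to right, and in EpiLCs most points lie below them.

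Isozymes and subunits of a step were compared as shares of their summed CPM per kilobase, with a two-sided exact permutation test whose smallest possible p is 0.1. Shmt1 held 29.1%, 27.3% and 29.5% of the Shmt1 and Shmt2 sum in vehicle ESCs and 30.7%, 32.6% and 30.3% in exposed ESCs. These groups were separate, with a mean difference of 2.58 percentage points (exact permutation test, p = 0.1, and 0.36 after Benjamini-Hochberg adjustment over 18 tests). The GC content of the transcripts is 51.3% for Shmt1 and 57.9% for Shmt2, and its part in this share was not tested. Prps1, Adss and Rrm1 also had separate shares in ESCs, with differences of -0.772, 0.475 and -0.488 points. In EpiLCs only the share of Rrm1 was separate, with 0.481 points. Between the vehicle cells of the cell types, which were not tested against each other, Prps1 held 90.8% of the PRPP synthetase sum in ESCs and 77.3% in EpiLCs. Aldh1l1, the cytosolic form, held 82.1% of its pair in vehicle ESCs and 42.5% ± 7.25 (SD, n = 3) in vehicle EpiLCs, whereas the share of Adss was 98.3% and 97.8% and that of Mthfd2 was 99.6% in both.

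The sequences before the gene starts are shown for a gene that rose in ESCs, Hprt, and one that fell, Shmt2, as the 250 bases upstream of the RefSeq start (GRCm38.p6), 5′ to 3′. Capitals mark the palindromic motif of the transcription factor NRF1, which is near the start of Shmt2. The GC content of these stretches was 59.6% for Hprt and 40.8% for Shmt2, the reverse of the order of their transcripts.

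Hprt (chrX:52987828-52988077, plus strand): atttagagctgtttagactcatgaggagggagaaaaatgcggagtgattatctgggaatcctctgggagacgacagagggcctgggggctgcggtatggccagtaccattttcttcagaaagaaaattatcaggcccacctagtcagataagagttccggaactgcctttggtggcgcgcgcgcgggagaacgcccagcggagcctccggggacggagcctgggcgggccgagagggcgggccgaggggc
Shmt2 (chr10:127522445-127522694, minus strand): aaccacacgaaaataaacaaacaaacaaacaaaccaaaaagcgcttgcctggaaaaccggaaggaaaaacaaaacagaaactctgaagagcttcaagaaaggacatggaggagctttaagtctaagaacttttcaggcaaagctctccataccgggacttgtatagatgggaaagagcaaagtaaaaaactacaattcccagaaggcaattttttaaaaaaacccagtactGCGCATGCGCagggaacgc

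Promoter windows of 250 bases before to 50 after the start were found in RefSeq for 31 of the 34 genes, 36 windows in all, and Pfas, Aldh1l2 and Dhodh had no entry. The E-box CACGTG, which MYC and MAX can bind, was searched on both strands and occurs in 7 of the 36 windows (19.4%) and in 7.15% of 32851 windows of all genes. It stands in Atic, Dtymk, Tyms, Paics, Impdh2 and in 2 windows of Nme1, shown with 10 bases on either side and the motif in capitals.

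Atic (chr1:71557139-71557164, plus strand): acctcggggtCACGTGgggtcgacac
Dtymk (chr1:93802067-93802092, minus strand): ctcgaacttcCACGTGaccagagcct
Tyms (chr5:30073671-30073696, minus strand): ccacttctgtCACGTGggggcggggt
Paics (chr5:76951089-76951114, plus strand): cctcggaaagCACGTGgagggacctg
Impdh2 (chr9:108560316-108560341, plus strand): gctcgataagCACGTGgttacccagc
Nme1 (chr11:93968275-93968300, minus strand): tgcggggaacCACGTGaggccgggga
Nme1 (chr11:93968039-93968064, minus strand): cttgatacgcCACGTGggctcgcctt

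None of these 6 genes was called in ESCs, where 5 of them had a value above 0, and 5 had a value below 0 in EpiLCs. The E2F motif (TTTCCCGC, TTTCGCGC, TTTGCCGC or TTTGGCGC, both strands) occurs in 5.56% of the windows, those of Ppat and Prps2, and in 2.26% of all windows. The NRF1 motif occurs in Ctps and Shmt2, also 5.56%, and in 0.971% of all windows. These matches are shown because Ppat, Prps2 and Shmt2 are among the genes called in ESCs.

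Ppat (chr5:76951772-76951799, minus strand): agcagaccgcGCGGGAAAaaagggcagt
Ppat (chr5:76951719-76951746, minus strand): ggatcagaggGCGGGAAAgggaggtgca
Prps2 (chrX:167382700-167382726, minus strand): gctgctgcgtTTTCCCGCttcaccagc
Ctps (chr4:120570322-120570351, minus strand): gagacgtcccGCGCATGCGCgccctagccc
Shmt2 (chr10:127522444-127522473, minus strand): acccagtactGCGCATGCGCagggaacgcc

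The CCAAT box (ATTGG, both strands) was as common in the windows of the set (36.1%) as in all windows (37.4%), and the C/EBP-ATF element TGATGNAAT was in none of the 36 windows and in 0.965% of all. A match is a string of letters and was not tested as a binding site.

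Of 56 further genes of these pathways listed by name, 53 were measured in ESCs and 54 in EpiLCs. In ESCs 2 rose (3.37% of all genes did) and 3 fell (3.55% of all genes did), with a median log2(fold-change) of 0.0086, and in EpiLCs 0 passed edgeR's test, with 39 of 54 below 0 (49.3% of all genes were) and a median of -0.070. The genes that rose were Dck, a kinase of deoxynucleoside salvage, from 59.5 ± 1.28 to 68.4 ± 1.55 CPM (SD, n = 3), a log2(fold-change) of 0.20 (SE 0.033, adjusted p = 0.0304 by edgeR with Benjamini-Hochberg), and Mat2a. Mat2a makes the methyl donor S-adenosylmethionine and rose from 190 ± 8.59 to 232 ± 11.1 CPM, a log2(fold-change) of 0.29 (SE 0.048, adjusted p = 0.0304 by edgeR with Benjamini-Hochberg). Among the genes that fell, the nucleoside diphosphate kinase family gene Nme6 fell by 0.23 on the log2 scale (SE 0.050, adjusted p = 0.0473 by edgeR with Benjamini-Hochberg). Phgdh, the entry into serine synthesis, fell by 0.11 (SE 0.024, adjusted p = 0.0489 by edgeR with Benjamini-Hochberg). As among the 34 genes, Dck and Mat2a have a low GC content (42.2% and 46.2%) and Nme6 and Phgdh a higher one (53.3% and 56.0%).

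None of the 10 listed regulators of these genes passed in either cell type with edgeR. In ESCs Myc had 6.65 ± 1.10 CPM with the vehicle and 5.72 ± 1.07 CPM with Δ9-THC (SD, n = 3), a log2(fold-change) of -0.22 with an SE of 0.17. Mycn, expressed at 89.7 ± 6.75 CPM with the vehicle, had -0.21 (SE 0.075), and Atf4, which activates serine and folate genes under amino acid stress, had -0.063 (SE 0.035). In EpiLCs their values were 0.25 for Myc, -0.045 for Mycn and -0.11 for Atf4.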

How the data were processed

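RNA was measured as poly(A) RNA-seq in 18 samples, of which the 12 libraries of ESCs and EpiLCs were used, and the 6 PGCLC samples were not analysed here. Groups of cell type and exposure came from the sample labels. Per the labels and methods, the authors aligned reads with STAR (unique hits), counted them over exons with HTSeq in union mode without strand, removed genes with low counts and adjusted the counts with ComBat-seq. The batches, and the library kit of each sample (either of 2), are not named. The deposited values are whole-number adjusted counts, with a table per cell type and 0 columns unused. The authors' genome is named both mm10 and GRCm39. Positions, GC content and lengths are from GENCODE M21 (GRCm38) and promoters from RefSeq (GRCm38.p6).

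Exposure was tested within each cell type with edgeR 4.0.16 (TMM, quasi-likelihood, genes whose counts summed to over 10, Benjamini-Hochberg adjustment over all genes, threshold 0.05) in R 4.3.3, and the difference between cell types as an interaction over the 12 libraries. CPM are on TMM-scaled library sizes. SEs are those implied by the F statistic. Since the adjustment by the authors took variation between libraries out of the counts, SDs and p-values measure only the spread that is left. Depth was 23427551 to 32096698 counts, at which the spread between libraries, and counting error for Adssl1, limit precision.

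Alternatives were DESeq2 1.42.0, RLE normalization, a block on replicate number, offsets for GC content and length (splines, 5 degrees of freedom), that block with those offsets, a stricter filter (10 counts or more per library) or none, a model of 12 libraries, and fits without 1 library. Leaving out both libraries of a number was added after seeing the data. The fits were tested on simulated counts with independent libraries and 200 genes changed by a log2(fold-change) of 1. The libraries here were tied and the changes smaller, so this does not show how the tests hold here. In the simulation, 17.2% of DESeq2's calls in EpiLCs and 7.28% in ESCs were false, against 4.64% and 2.49% for edgeR. The 34 genes, the other lists and the motifs were chosen with earlier results of these data known. The 34 were all named, with values in every library for those called, or for the 6 with the smallest p-values where fewer than 6 were called. Other pathway genes were named where called, except for 1 that is counted but not reported here, and Myc, Mycn and Atf4 always. Python 3.11.15, pandas 2.3.3, scipy 1.17.1 and matplotlib 3.10.9 were used.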

Additional observations from a re-analysis of the deposited data

How the results depend on the processing

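In ESCs, RLE normalization, either filter and DESeq2 kept the number of calls within 1.5 times the reported one. DESeq2 called 6 of the 34 genes (17.6%) and 759 in all (5.79%). A model of 12 libraries called 0 of the 34 and 25 in all, and the offsets for GC content and length 0 and 2. Replicate numbers were tried as a block. Over all genes, same-numbered libraries deviated from their group means in opposite directions (correlation -0.98 to -0.99 in each of the 6 pairs). Libraries of one number were thus tied to each other in these adjusted tables, though not by deviating in the same direction. The test without a block takes libraries as independent and does not account for this. The replicate block called 0 of the 34 genes and 5 in all in ESCs (5 of the 34, 14.7%, and 11.1% of all genes had an unadjusted p-value under 0.05), 0 in EpiLCs and 0 in the interaction, and the block with the offsets 0 of the 34 and 3 in all in ESCs. In EpiLCs DESeq2 called 87 genes and the model of 12 libraries 439 (3.54%). The latter included 2 of the 34 (5.88%), Dhodh and Impdh1 (adjusted p = 0.0484 each, edgeR). In the interaction, the offsets called 0 genes. The cause of these differences was not tested.

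Without 1 library, or without both libraries of a number, ESCs gave 0 to 1757 calls in all and 0 to 5 among the 34. The upper values are those without number 1, where 14.7% of the 34 and 13.4% of all genes passed. The interaction was refitted without 1 library only, and called 0 genes each time. The median of the 34 genes in EpiLCs ran from -0.20 without number 3 to 0.031 without number 2. The 7 genes called in ESCs kept their sign in all of these fits, as did Dhodh, Impdh1, Impdh2, Aprt, Umps, Shmt1 and Shmt2 in EpiLCs. All of these genes had groups without overlap, so leaving out libraries could hardly reverse their sign. In EpiLCs, Aldh1l2, also without overlap, and Mthfd2, Tyms, Dtymk and Ctps2, with overlap, kept their sign too.

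With the offsets, 8 genes changed sign in ESCs, with log2 values of 0.081 for Aprt, 0.030 for Cad, 0.017 for Mthfd1, -0.027 for Hprt, -0.072 for Gmps, -0.0020 for Ctps, -0.015 for Rrm1 and -0.050 for Prps1 (with the block too, -0.0022 for Ctps and -0.016 for Rrm1, and the same rounded values for the others). In EpiLCs, Adssl1 had 0.075 (0.073 with the block), Adss -0.054, Paics -0.0044 (-0.0039 with the block and -0.0051 in the model of 12 libraries) and Rrm1 -0.12.

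In ESCs, 15 of the 34 genes took either sign among the fits without libraries. The range was -0.022 to 0.047 for Prps1 in PRPP synthesis. It was -0.0082 to 0.13 for Adsl in the route to IMP. It was -0.12 to 0.016 for Impdh2 and -0.45 to 0.10 for Adssl1 in the branches to AMP and GMP. It was -0.12 to 0.016 for Aprt in purine salvage. It was -0.18 to 0.0067 for Cad, -0.025 to 0.077 for Ctps, -0.091 to 0.024 for Ctps2, -0.023 to 0.089 for Uck2 and -0.038 to 0.12 for Nme1 in the pyrimidine genes. It was -0.10 to 0.11 for Dut in the deoxynucleotide genes. It was -0.028 to 0.081 for Shmt1, -0.050 to 0.0066 for Mthfd1, -0.040 to 0.068 for Mthfd1l and -0.022 to 0.043 for Mthfd2 in the folate cycle. In EpiLCs, 22 of the 34 genes took either sign among the fits without libraries. The range was -0.087 to 0.21 for Prps1 and -0.14 to 0.26 for Prps2 in PRPP synthesis. It was -0.33 to 0.20 for Ppat, -0.37 to 0.094 for Gart, -0.26 to 0.032 for Pfas, -0.12 to 0.084 for Paics, -0.47 to 0.015 for Adsl and -0.43 to 0.093 for Atic in the route to IMP. It was -0.39 to 0.11 for Gmps, -0.14 to 0.14 for Adss and -0.25 to 0.16 for Adssl1 in the branches to AMP and GMP. It was -0.12 to 0.037 for Hprt in purine salvage. It was -0.24 to 0.21 for Cad, -0.24 to 0.13 for Ctps, -0.055 to 0.030 for Cmpk1, -0.061 to 0.043 for Uck2 and -0.36 to 0.12 for Nme1 in the pyrimidine genes. It was -0.079 to 0.17 for Rrm1, -0.11 to 0.076 for Rrm2 and -0.24 to 0.017 for Dut in the deoxynucleotide genes. It was -0.25 to 0.12 for Mthfd1 and -0.21 to 0.12 for Mthfd1l in the folate cycle.

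Shares that took either sign without 1 library were those of Prps1 (-1.38 to 0.0781 percentage points), Impdh1 (-0.231 to 0.154), Adss (-0.202 to 0.330) and Ctps (-0.941 to 0.597) in EpiLCs and of Mthfd2 in ESCs (-0.0372 to 0.0226). Depth limits Adssl1, the gene with the fewest counts.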
